A study of Mus musculus with 12 samples.

Results

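The 10 genes described here encode amino acid carriers of the plasma membrane: Slc7a1, Slc7a3, Slc7a5, Slc3a2, Slc1a4, Slc1a5, Slc38a1, Slc38a2, Slc6a9 and Slc43a1. They were chosen by name, without a threshold on measured values but with earlier results of these data known. All 10 were found among the 24343 genes of the expression tables. RNA-seq was performed on 12 libraries of HT22 cells, an immortalized mouse hippocampal neuronal line, with 3 biological replicates in each of 4 groups. Cells received either a control siRNA (siControl) or an siRNA against Ncoa4 (siNCOA4), the receptor that delivers ferritin to autophagy so that its stored iron can be used. One siControl and one siNCOA4 group were kept at normal iron, and the others (siControl+DFO and siNCOA4+DFO) were exposed to the iron chelator DFO (deferoxamine) at 100 µM for 24 h. The design asks how loss of NCOA4, restriction of iron, or both change the transcriptome. All groups were transfected and share a single transformed cell line, so that none of them is a model of primary neurons.

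Cells take up most amino acids through carriers that are shared by several substrates. Slc7a5 (LAT1) imports large neutral amino acids such as leucine in exchange for intracellular ones, and it reaches the membrane only when joined to Slc3a2 (CD98 heavy chain, 4F2hc), which other Slc7 light chains also use. The exchangers Slc1a4 (ASCT1) and Slc1a5 (ASCT2) carry small neutral amino acids and glutamine, and the sodium-coupled Slc38a1 and Slc38a2 (SNAT1 and SNAT2) supply the neutral amino acids that exchangers need. Transcription of several of these genes is known to be induced by ATF4, the transcription factor of the integrated stress response, when amino acids run short or translation initiation is curbed.

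Values were deposited as FPKM, fragment counts scaled by gene length and by the size of the library, as normalized by the authors. The gene lengths behind them are not given in the sources used here, so that comparisons between genes are approximate. Ncoa4 itself lay between 6.02 and 6.46 FPKM in siControl and between 0.770 and 0.952 FPKM in siNCOA4, and between 7.52 and 8.70 FPKM in siControl+DFO against 0.850 to 1.57 FPKM in siNCOA4+DFO, so that the libraries followed their siRNA labels. A rough relative depth, read from 159 to 190 genes with low FPKM per library, spanned 1.52-fold, with siNCOA4+DFO replicate 3 the shallowest. It is uncertain because low values did not fall on clean steps of whole reads. Small noncoding RNAs took between 36.4% and 41.3% of the summed FPKM of each library without DFO and between 42.2% and 52.4% with DFO. Of 11 neuronal markers, 4 (Tubb3, Syn1, Dlg4 and Eno2) averaged at least 1 FPKM in every group, while the other 7 (Rbfox3, Map2, Syp, Snap25, Slc17a7, Grin1 and Nefl) never exceeded 0.554 FPKM. The synaptic transcripts Syn1 (4.08 to 6.61 FPKM) and Dlg4 (5.95 to 15.1 FPKM) were thus present in all libraries, and Rbfox3, which encodes the nuclear neuronal marker NeuN, was at 0 in 10 of 12. Among 5 astrocyte markers Gja1 was at 23.6 to 62.0 FPKM and Aldh1l1 at 0.285 to 2.68 FPKM, whereas Gfap, Aqp4 and Slc1a2 stayed at or below 0.685 FPKM.

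In siControl cells the 10 transporters spanned a wide range of levels. Slc38a2 was the most abundant at 115.8 ± 5.41 FPKM (SD, n = 3), a level above 95.5% of the 11924 genes tested. Slc3a2 (72.4 ± 1.73 FPKM) and Slc7a5 (67.7 ± 7.22 FPKM) followed and overlapped each other in their libraries. Slc7a1 stood at 33.2 ± 1.67 FPKM, Slc6a9 at 27.1 ± 1.87 FPKM, Slc1a5 at 25.0 ± 1.85 FPKM, Slc38a1 at 21.3 ± 1.88 FPKM and Slc1a4 at 16.8 ± 1.02 FPKM. Of these, the libraries of Slc6a9 overlapped with those of Slc1a5, and those of Slc1a5 with those of Slc38a1, so that the order of these neighbours is within the spread between replicates. Slc7a3 was near the limit of detection at 0.579 ± 0.337 FPKM, and Slc43a1 was listed at 0 in all 3 siControl libraries.

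Sequence near the start sites was searched because most of these genes moved together with DFO, as described below. RefSeq promoter windows on GRCm38.p6, each reaching from 250 bases before to 50 bases after a start, covered 6 of the 10 transporters (Slc7a1, Slc3a2, Slc1a4, Slc38a2, Slc6a9 and Slc43a1) with 9 windows. On both strands, the search used TGATGNAA, the core of the element at which ATF4 and C/EBP proteins pair, ACGTG, the core of the hypoxia response element, and CACGTG, the E-box, which contains ACGTG on each strand. The stretches below hold the matches of Slc1a4, Slc3a2 and Slc43a1, written on the strand of each gene with the matched bases in capitals.
Slc1a4, TGATGNAA in antisense orientation: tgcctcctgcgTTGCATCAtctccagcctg
Slc3a2, ACGTG in antisense orientation: caagacaaattCACGTttgttattctaagg
Slc43a1, CACGTG: gggtctccctcCACGTGgcagccgtgggat
The Slc1a4 stretch lies at chr11:20332699-20332728 on the minus strand, and its match begins 4 bases before the start site. The Slc3a2 stretch, at chr19:8714043-8714072 on the minus strand, has its match at positions -164 to -160 relative to the start. In Slc43a1 the match is at positions -64 to -59, within chr2:84840248-84840277 on the plus strand. The Slc3a2 and Slc43a1 stretches lie inside the annotated spans of their genes, so the starts used for them are not the outermost annotated ones. Among all 32851 promoter windows, TGATGNAA was present in 3.97%, ACGTG in 19.6% and CACGTG in 7.15%, and of the 9 transporter windows 1, 2 and 1 held them, respectively. These are matches of letters only, within windows of this length.

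Iron restriction raised the transcripts of 8 of the 9 transporters that could be tested. Differences were estimated with limma on log2(FPKM + 0.1), a scale that understates the change of genes near 0, and p-values were adjusted by Benjamini-Hochberg over the 11924 genes with at least 0.5 FPKM in 3 or more libraries, a filter that 9 of the 10 transporters passed. In siControl+DFO versus siControl, 8 of the 9 rose at an adjusted p below 0.05 and none fell, where 53.4% of all genes tested were called and 27.7% were called higher and 25.7% lower. The median log2 change of the 9 transporters was 0.85, against -0.011 for all genes tested. Slc7a1, Slc3a2 and Slc6a9 also exceeded 2-fold, a limit that 18.8% of all genes passed together with the adjusted p and 11.1% passed upwards. For each of the 8 transporters, the lowest of the 6 libraries with DFO was above the highest of the 6 libraries without it, as was so for 17.8% of all genes tested, although by little for Slc38a1, at 23.3 against 23.2 FPKM. The panels of FPKM by library show this separation, and also the exceptions Slc7a3 and Slc43a1.

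**Figure D1:**
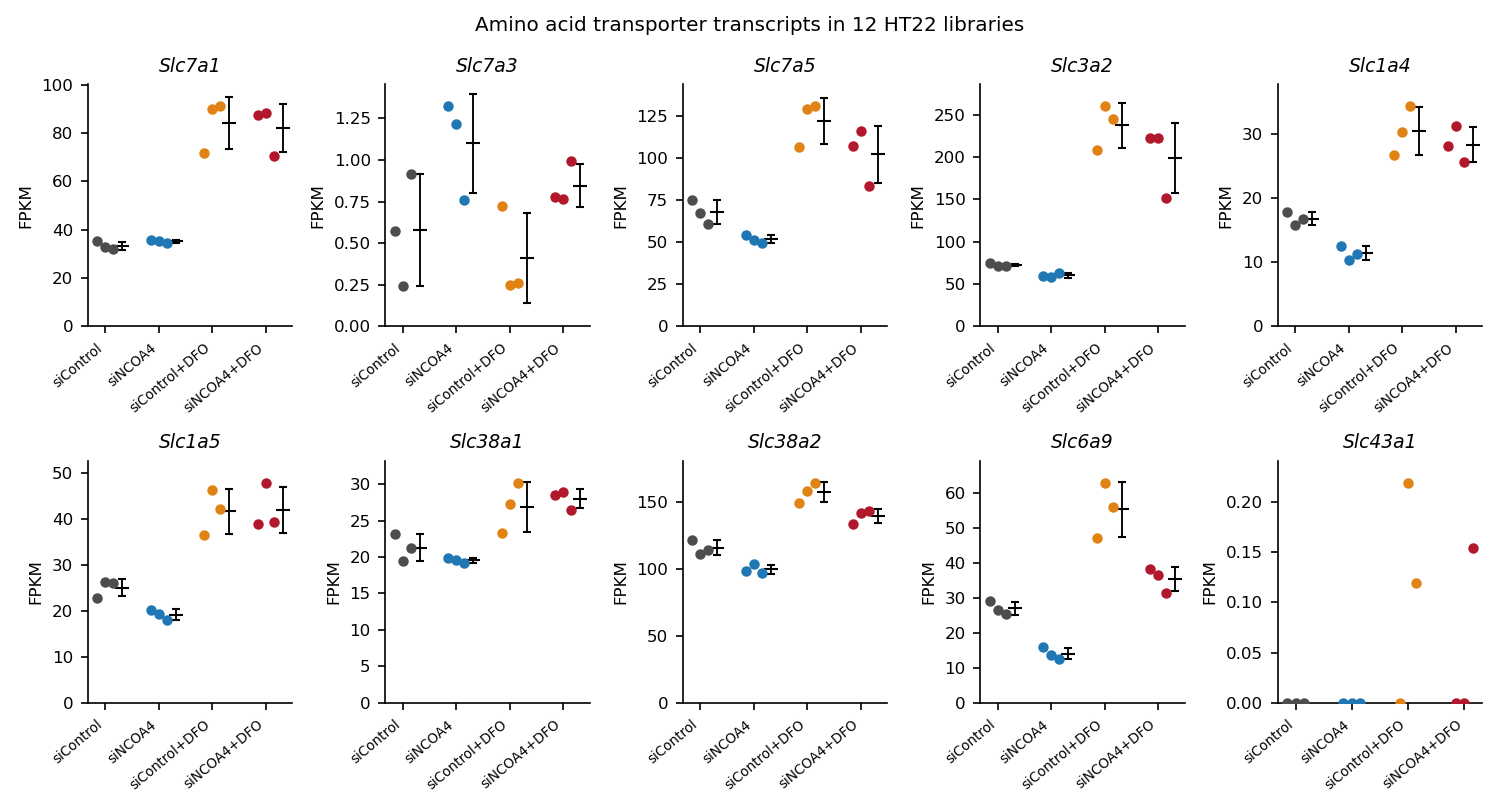
FPKM of the 10 transporters (vertical axes, linear, each from 0) in the 12 libraries, ordered by group on the horizontal axes. Points are single libraries and the black marks are the mean ± SD of 3 replicates, left out for Slc43a1, which is at 0 in 9 libraries. In 8 panels every library with DFO lies above every library without it (17.8% of all genes tested did so). In the Slc6a9 and Slc38a2 panels the 4 groups stand apart from each other, and the share of all genes that do so was not determined.

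Other transcripts also differed between the groups. Summed FPKM of the 11 neuronal markers ran from 23.2 to 33.6 without DFO and from 35.8 to 50.6 with DFO. Most of it came from Tubb3, Syn1, Dlg4 and Eno2. Over the 12 libraries Eno2 spanned 2.97 to 24.0 FPKM and Tubb3 4.56 to 13.6 FPKM. The sum of the 5 astrocyte markers ran from 23.9 to 38.1 without DFO and from 51.8 to 63.3 with DFO, most of it Gja1. The summed oligodendrocyte markers (4 genes, with Mag at 0 in all libraries) never exceeded 1.47 FPKM and the microglia and leukocyte markers (5 genes, P2ry12 at 0) never exceeded 0.802 FPKM. Endothelial markers (4 genes, Cldn5 at 0) reached at most 0.539 FPKM without DFO and 1.76 FPKM with it. The part of these shifts and of the higher share of small RNAs in the transporter values was not tested. In bulk RNA, a change in the proportion of cells and a change of RNA per cell cannot be told apart.

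In siNCOA4 versus siControl, 3 of the 9 transporters fell (Slc6a9, Slc1a4 and Slc1a5) and none rose, where 11.7% of all genes were called, 4.52% higher and 7.21% lower. For 6 of the 9 (the same 3 with Slc7a5, Slc3a2 and Slc38a2) all siNCOA4 libraries lay below all siControl libraries, an arrangement found in 17.6% of genes tested. None of the 9 passed the 2-fold limit together with the adjusted p in limma, which 1.78% of all genes did, and 5 had an unadjusted p below 0.05, as did 26.2% of all genes. The median log2 change of the 9 was -0.27, against 0.0048 for all genes. The number that fell depended on the fit: it was 2 without the filter on low values, under quantile normalization, without the variance trend and when any of 6 single libraries was left out, each time through the loss of Slc1a5, 5 when only these groups were fitted, and 6 without siNCOA4+DFO replicate 3, whose spread enters the pooled error.

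Under DFO, 1 transporter was called lower with the Ncoa4 siRNA. In siNCOA4+DFO versus siControl+DFO, Slc6a9 fell and none of the other 8 tested transporters passed, where 16.5% of all genes were called and 10.2% were called lower. None of the 9 met both limits in limma (2.09% of genes did), and 2, Slc6a9 and Slc38a2, had an unadjusted p below 0.05, as did 32.2% of all genes. DFO raised 8 of 9 transporters when siNCOA4+DFO was compared with siNCOA4, where 42.7% of genes were called and 23.1% were called higher, and 5 of them exceeded 2-fold (11.4% of genes in either direction, 7.59% upwards). Against untreated siControl, the combination also left 8 of 9 higher (48.8% of genes called, 25.4% higher), with Slc7a1 and Slc3a2 past 2-fold (15.2% of genes, 9.24% upwards). A direct test of whether the response to DFO differed between siNCOA4 and siControl cells, the interaction term of the same limma model, called 0 of 9 transporters and 2.1% of all genes, and 2 transporters, Slc1a4 and Slc1a5, had an unadjusted p below 0.05, as did 18.2% of all genes. The comparisons share libraries with each other and are therefore not independent of each other.

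**Figure D2:**
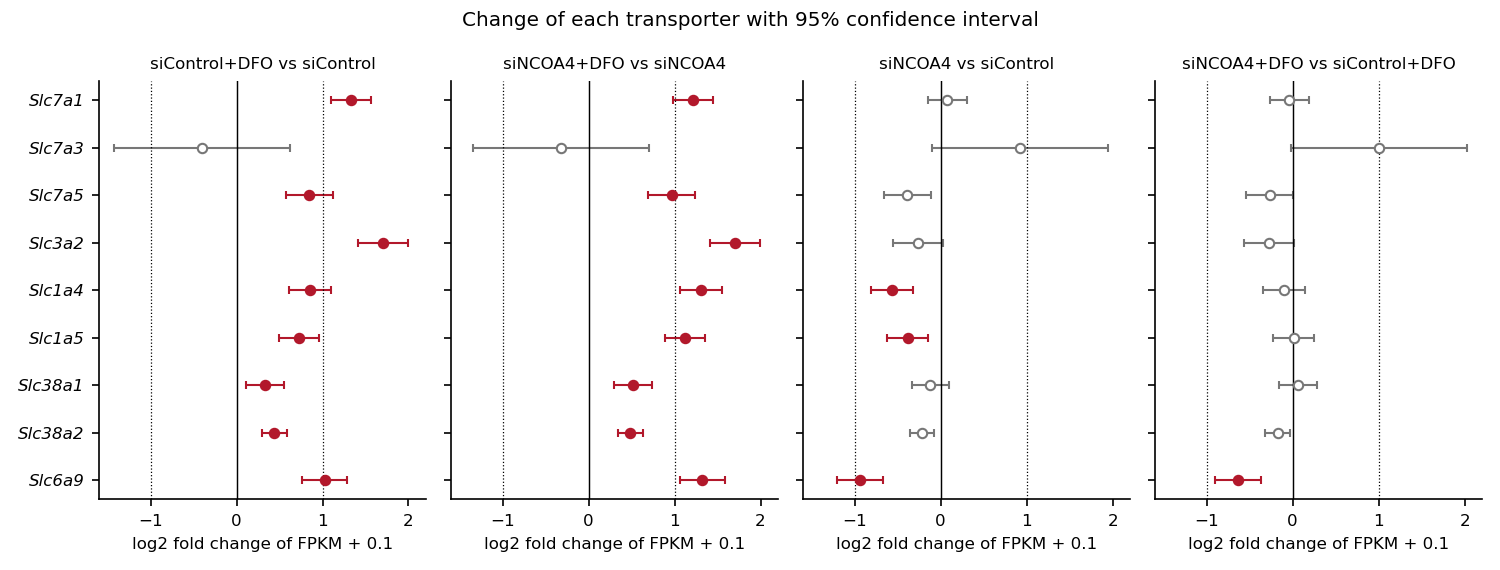
log2 fold change of FPKM + 0.1 (horizontal axis) for the 9 tested transporters (vertical axis) in 4 comparisons, with 95% confidence intervals from limma. Filled red points have an adjusted p below 0.05 and open points do not, dotted lines mark 2-fold, and the 8 filled points in the first panel all lie to the right of 0.

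The heavy chain Slc3a2 responded more to iron restriction than any of the other tested transporters by its estimated change. Slc3a2 is annotated at chr19:8706882-8723369 on the minus strand (GRCm38, GENCODE M21), and 3.58% of the 75-base windows of its longest coding transcript also occur in other genes. The siControl libraries 1 to 3 held 74.4, 71.1 and 71.7 FPKM of this transcript and the siNCOA4 libraries 59.3, 58.2 and 63.1 FPKM, compared with 207.6, 259.5 and 244.7 in siControl+DFO and 222.8, 221.8 and 151.0 in siNCOA4+DFO. All DFO libraries were far above any untreated library, and within siNCOA4+DFO replicate 3 was far below the other replicates. Slc3a2 rose by 1.70 ± 0.13 on the log2 scale (SE, adjusted p = 6.51e-07), or 3.26-fold with a 95% interval of 2.66 to 3.99, and by 1.70 ± 0.13 in siNCOA4 cells (adjusted p = 1.53e-06). In siNCOA4 versus siControl the difference was -0.27 (95% interval -0.56 to 0.02, adjusted p = 0.23). That comparison passed the threshold when only its own groups were fitted (adjusted p = 0.0351) or without siNCOA4+DFO replicate 3 (adjusted p = 0.0498). Under DFO the siRNA difference was -0.27 (adjusted p = 0.181), and without siNCOA4+DFO replicate 3 it was -0.087.

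Slc7a5, the LAT1 light chain, is annotated at chr8:121881150-121907694 on the minus strand. It was at 75.1, 67.2 and 60.7 FPKM in siControl, 54.2, 51.2 and 49.5 in siNCOA4, 106.3, 128.9 and 130.4 in siControl+DFO and 107.1, 115.7 and 83.0 in siNCOA4+DFO. The siNCOA4 libraries were the lowest, and both DFO groups overlapped at the top. DFO raised it by 0.85 ± 0.13 on the log2 scale (adjusted p = 1.19e-04), or 1.80-fold, and by 0.97 ± 0.13 in siNCOA4 cells (adjusted p = 6.76e-05), just below 2-fold and past it without siNCOA4 replicate 1 or siNCOA4+DFO replicate 3 (1.11). The siNCOA4 difference was -0.39 (95% interval -0.66 to -0.11) with an adjusted p of 0.0687, and it passed the threshold in the fit of the compared groups alone (adjusted p = 0.0477) and without siNCOA4+DFO replicate 3 (adjusted p = 0.0247). Under DFO the corresponding difference was -0.27 (adjusted p = 0.168).

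Because Slc7a5 works as a dimer with Slc3a2, their transcripts were also compared as a ratio within each library. The ratio of Slc7a5 to Slc3a2 FPKM was between 0.846 and 1.01 in siControl and between 0.784 and 0.914 in siNCOA4, but between 0.497 and 0.533 in siControl+DFO and between 0.480 and 0.550 in siNCOA4+DFO. All 6 libraries with DFO lay below all 6 without it, with more heavy chain transcript per light chain transcript in each of them. The ratio restates the larger rise of Slc3a2 than of Slc7a5 with DFO given above. The share of other gene pairs separated in this way was not determined. On the log2 scale the mean ratio fell by 0.86 in siControl cells and by 0.73 in siNCOA4 cells, each with a two-sided exact permutation p of 0.1, the smallest that 3 against 3 libraries can give. The siRNA left a difference of -0.12 at normal iron (exact permutation p = 0.4) and 0.0077 under DFO (exact permutation p = 1). The summed FPKM of 6 light chains that pair with Slc3a2 (Slc7a5, Slc7a6, Slc7a7, Slc7a8, Slc7a10 and Slc7a11), divided by Slc3a2, was 1.19 ± 0.0925 in siControl, 1.19 ± 0.0915 in siNCOA4, 0.646 ± 0.0279 in siControl+DFO and 0.720 ± 0.0735 in siNCOA4+DFO (SD, n = 3). Slc7a5 provided 78.6% of that light chain FPKM in siControl and 72.3% in siNCOA4, and 79.5% and 72.0% with DFO. Slc7a11, the cystine carrier, made up 1.58%, 4.89%, 11.4% and 18.1% of it in siControl, siNCOA4, siControl+DFO and siNCOA4+DFO, a share looked at after its values had been seen.

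**Figure D3:**
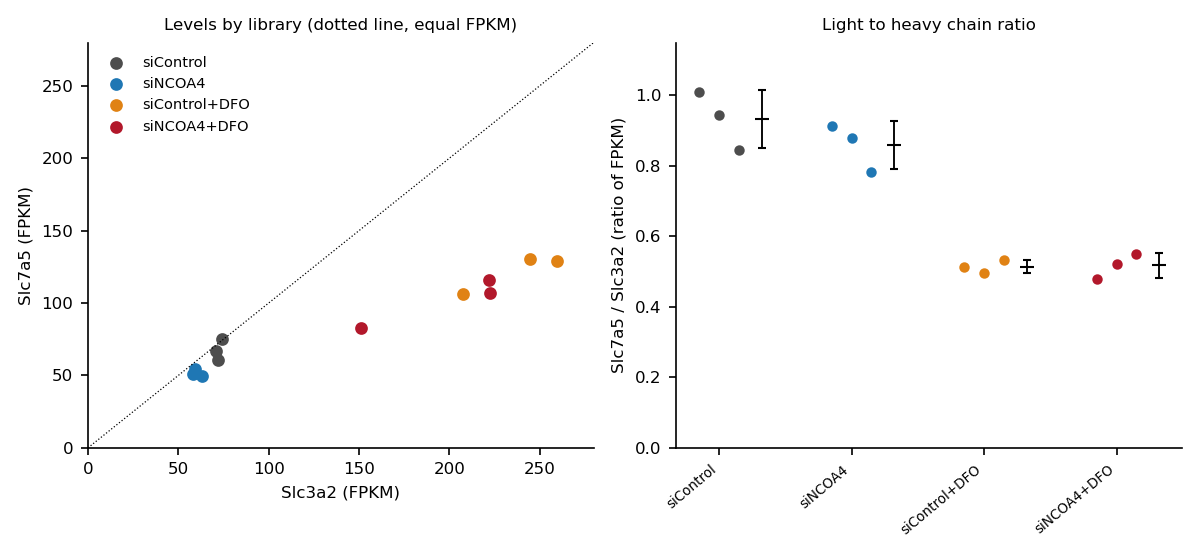
Left, FPKM of Slc7a5 (vertical axis) against Slc3a2 (horizontal axis) in each of the 12 libraries, with a dotted line at equal FPKM. Right, the ratio of both by group, with points for libraries and black marks for the mean ± SD of 3 replicates; the ratio was 0.846 or more in siControl and 0.550 or less in all libraries with DFO.

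Slc7a1 (CAT1), the main carrier of arginine and lysine in many cells, is annotated at chr5:148327410-148399904 on the minus strand. It measured 35.1, 32.7 and 31.9 FPKM in siControl and 35.7, 35.2 and 34.4 in siNCOA4, whose ranges overlapped. With DFO it measured 71.9, 89.9 and 90.9 FPKM in siControl and 87.4, 88.3 and 70.6 in siNCOA4 cells, again with overlapping ranges, and each DFO group contained a single lower library. DFO raised Slc7a1 by 1.33 ± 0.11 on the log2 scale, or 2.52-fold with a 95% interval of 2.15 to 2.95 (adjusted p = 7.27e-07), and by 1.22 ± 0.11 in siNCOA4 cells (adjusted p = 3.3e-06). The effect of the siRNA was 0.080 at normal iron, with a 95% interval of -0.15 to 0.31 (adjusted p = 0.69), and -0.037 under DFO, with a 95% interval of -0.27 to 0.19 (adjusted p = 0.851). The latter was positive under quantile normalization or without single DFO libraries, so no direction can be read from it.

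Slc7a3 (CAT3), a related cationic carrier at chrX:101079210-101086020 on the minus strand, stayed low throughout. Its FPKM was 0.576, 0.244 and 0.917 in siControl, 1.32, 1.21 and 0.762 in siNCOA4, 0.723, 0.246 and 0.261 in siControl+DFO and 0.778, 0.766 and 0.993 in siNCOA4+DFO. Both siNCOA4 groups averaged above their siControl group, without overlap only in the presence of DFO. No comparison passed the test: the log2 differences of siNCOA4 were 0.92 ± 0.47 at normal iron (adjusted p = 0.239) and 1.01 ± 0.47 under DFO (adjusted p = 0.163), and those of DFO were -0.40 ± 0.47 in siControl cells (adjusted p = 0.497) and -0.32 ± 0.47 in siNCOA4 cells (adjusted p = 0.618). The standard error of 0.47 compares with at most 0.13 for the other tested transporters, and differences of 2-fold could not be resolved at this level.

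Slc1a4 (ASCT1), a carrier of serine, alanine and cysteine at chr11:20302180-20332713 on the minus strand, moved in both directions. It was at 17.8, 15.8 and 16.7 FPKM in siControl and at 12.5, 10.3 and 11.2 in siNCOA4, without overlap. The DFO libraries reached 26.7, 30.3 and 34.2 FPKM in siControl and 28.1, 31.1 and 25.6 in siNCOA4 cells, where the ranges did overlap. In the test, siNCOA4 lowered Slc1a4 by 1.47-fold (log2 -0.56 ± 0.11, adjusted p = 0.00746) and DFO raised it by 1.80-fold (log2 0.85 ± 0.11, adjusted p = 4.71e-05). In siNCOA4 cells DFO raised it 2.48-fold (log2 1.31 ± 0.11, adjusted p = 2.98e-06). The difference between both DFO responses was 0.46 ± 0.16 on the log2 scale, with an unadjusted p of 0.0134 and an adjusted p of 0.149, which does not pass the threshold. Under DFO the siRNA difference was -0.10 (95% interval -0.35 to 0.14, adjusted p = 0.578).

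Slc1a5 (ASCT2), which brings glutamine into proliferating cells, is annotated at chr7:16781340-16798274 on the plus strand. In siControl it was at 22.9, 26.2 and 25.98 FPKM and in siNCOA4 at 20.3, 19.3 and 17.9 FPKM, all siNCOA4 libraries being lower. With DFO it rose to 36.6, 46.2 and 42.1 FPKM in siControl and to 39.0, 47.8 and 39.3 FPKM in siNCOA4 cells, so that the groups apart at normal iron overlapped under DFO. DFO changed it by 0.73 ± 0.11 on the log2 scale (1.66-fold, adjusted p = 1.24e-04) in siControl and by 1.12 ± 0.11 (2.18-fold, adjusted p = 7.21e-06) in siNCOA4 cells. The difference of these responses was 0.39 ± 0.15 (unadjusted p = 0.0244, adjusted p = 0.196). The decrease with siNCOA4, -0.38 ± 0.11 on the log2 scale or 1.30-fold, was close to the threshold (adjusted p = 0.0407). It was lost, with adjusted p from 0.0568 to 0.134, without the filter on low values, under quantile normalization, without the variance trend, and when siControl replicate 2 or 3, any siNCOA4 replicate or siControl+DFO replicate 3 was left out. Under DFO the siRNA difference was 0.013 (95% interval -0.22 to 0.25, adjusted p = 0.954).

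The sodium-coupled carriers Slc38a1 and Slc38a2 lie next to each other in the same orientation, at chr15:96571418-96642913 and chr15:96687392-96699730 on the minus strand, and had the smallest DFO responses among the 8 that rose. Slc38a1 was at 23.2, 19.4 and 21.3 FPKM in siControl, 19.9, 19.5 and 19.2 in siNCOA4, 23.3, 27.3 and 30.2 in siControl+DFO and 28.6, 29.0 and 26.5 in siNCOA4+DFO. Its libraries overlapped between siRNAs at either iron status, and siControl+DFO replicate 1 was only just above the highest untreated library. DFO raised Slc38a1 by 0.33 ± 0.10 on the log2 scale (1.26-fold, adjusted p = 0.014), a call that was lost under quantile normalization (adjusted p = 0.0797) and without siControl replicate 2 (adjusted p = 0.0627) or siControl+DFO replicate 3 (adjusted p = 0.0668). In siNCOA4 cells it rose by 0.52 ± 0.10 (adjusted p = 0.00128). The siRNA differences were -0.12 (95% interval -0.34 to 0.10, adjusted p = 0.497) at normal iron and 0.064 (95% interval -0.15 to 0.28, adjusted p = 0.704) under DFO.

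Slc38a2, an adaptive carrier whose level is known to respond to amino acid supply, had the smallest standard errors of the 9 tested. Its FPKM was 121.8, 111.3 and 114.3 in siControl, 98.2, 103.7 and 97.2 in siNCOA4, 149.5, 158.3 and 164.1 in siControl+DFO and 133.5, 141.4 and 143.5 in siNCOA4+DFO. The 4 groups did not overlap, with siNCOA4 lowest, then siControl, siNCOA4+DFO and siControl+DFO. The share of all genes tested whose 4 groups stand apart was not determined. DFO raised it by 0.44 ± 0.07 on the log2 scale (1.36-fold, adjusted p = 1.31e-04) in siControl and by 0.48 ± 0.07 (adjusted p = 1.03e-04) in siNCOA4 cells. Although separated, the siNCOA4 libraries differed by -0.22 at normal iron (adjusted p = 0.0554, or 0.0473 without siNCOA4+DFO replicate 3) and by -0.17 under DFO (adjusted p = 0.093). The FPKM ratio of Slc38a2 to Slc38a1 was 5.46 ± 0.249 in siControl, 5.10 ± 0.190 in siNCOA4, 5.89 ± 0.495 in siControl+DFO and 4.99 ± 0.384 in siNCOA4+DFO (SD, n = 3). Libraries with and without DFO overlapped for either siRNA, and under DFO the siNCOA4 libraries lay below the siControl libraries.

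Slc6a9 (GLYT1), the glycine carrier, fell with siNCOA4 both at normal iron and under DFO. It was at 29.2, 26.6 and 25.5 FPKM in siControl and at 15.9, 13.8 and 12.7 FPKM in siNCOA4. With DFO it was at 47.3, 63.0 and 56.0 FPKM in siControl and at 38.3, 36.7 and 31.5 FPKM in siNCOA4 cells. None of the 4 groups overlapped, and each siNCOA4 group lay below its siControl group. How many of all genes tested have 4 separate groups was not determined. The decrease with siNCOA4 was 1.92-fold at normal iron (log2 -0.94 ± 0.12, adjusted p = 4.37e-04) and 1.55-fold under DFO (log2 -0.64 ± 0.12, adjusted p = 0.00464). Without siNCOA4 replicate 1, the former passed 2-fold at -1.03 on the log2 scale.

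DFO raised Slc6a9 by 1.02 ± 0.12 on the log2 scale in siControl (2.03-fold, adjusted p = 1.85e-05) and by 1.32 ± 0.12 in siNCOA4 cells (2.50-fold, adjusted p = 4.63e-06). The first of these was at the 2-fold limit and went below it with a pseudocount of 1, under quantile normalization (0.89), without siControl replicate 3 and without siControl+DFO replicate 2 (0.93). The test of the difference between both gave 0.30 ± 0.17 (95% interval -0.070 to 0.67, adjusted p = 0.388), which did not pass the threshold. siNCOA4+DFO ended 0.39 ± 0.12 above siControl (1.31-fold, adjusted p = 0.0184), which no longer passed without siControl replicate 2 or 3 or siNCOA4+DFO replicate 1 or 2 (adjusted p from 0.0513 to 0.0689).

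A limit of the Slc6a9 values is its position. The gene, at chr4:117834506-117875198 on the plus strand, overlaps exons of Gm17114, Ccdc24 and B4galt2 on the minus strand, and 39.3% of the 75-base windows of its longest coding transcript occur, on either strand, in transcripts of Ccdc24 or Gm17114. The library kit preserves strand, but the strand setting used for counting is not given in the sources used here. Ccdc24 was at 7.88 ± 0.902 FPKM in siControl, 9.30 ± 1.13 in siNCOA4, 3.09 ± 1.31 in siControl+DFO and 5.96 ± 2.50 in siNCOA4+DFO (SD, n = 3), and it fell with DFO (log2 -1.42 ± 0.35, adjusted p = 0.00478). B4galt2 fell as well, by 1.62 on the log2 scale (adjusted p = 3.83e-07), from 21.3 ± 1.38 to 6.85 ± 0.0834 FPKM. In siControl cells both thus changed with DFO in the direction opposite to Slc6a9. In siNCOA4 cells the limma DFO change was -0.73 for Ccdc24 (adjusted p = 0.116) and -0.95 for B4galt2 (adjusted p = 4.87e-05). Their siNCOA4 differences at normal iron were 0.24 (adjusted p = 0.731) and -0.30 (adjusted p = 0.133). Under DFO these differences were 0.92 (adjusted p = 0.0926) and 0.37 (adjusted p = 0.0532). B4galt2 shared none of these windows, and no values of Gm17114 were available. The part of the overlapping genes in the Slc6a9 values was not tested.

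Slc43a1 (LAT3), a carrier of leucine and other neutral amino acids that needs no heavy chain, is annotated at chr2:84838850-84863594 on the plus strand. It was listed at 0 in 9 libraries, at 0.219 and 0.119 FPKM in siControl+DFO replicates 2 and 3, and at 0.154 FPKM in siNCOA4+DFO replicate 3. It did not pass the filter on low values and was not tested, and at this depth no difference was detectable.

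Added together, the FPKM of the 10 transporters was 379.9 ± 17.5 in siControl, 311.9 ± 5.70 in siNCOA4, 755.6 ± 74.4 in siControl+DFO and 656.7 ± 74.5 in siNCOA4+DFO (SD, n = 3). The sum thus about doubled with DFO and its make-up shifted. Slc3a2 made up 19.1% ± 0.433 of the sum in siControl and 31.4% ± 0.787 in siControl+DFO, while the share of Slc38a2 went from 30.5% ± 0.476 to 20.9% ± 1.33. Slc7a5 made up 16.4% to 18.8% in siControl and 15.9% to 16.4% in siControl+DFO, with every DFO library just below every siControl library. Replicates with lower values tended to be lower for many of the transporters at once: siControl+DFO replicate 1 was the lowest of its group for 8 of the 9 tested transporters, siNCOA4 replicate 3 for 7 and siNCOA4+DFO replicate 3 for 6. In siControl+DFO replicate 1 the median deviation of the 9 transporters from their group means was -0.19 on the log2 scale, against 0.00027 for all genes tested. By the same uncertain depth estimate, siControl+DFO replicate 1 and siNCOA4+DFO replicate 3 were the shallowest libraries of their groups, and siNCOA4 replicate 3 was the deepest of all. Whether depth has a part in these offsets was not tested.

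Other amino acid carriers were called in both directions with DFO, as all genes were. Of 37 further plasma membrane transporters 11 passed the filter, and in siControl+DFO versus siControl 3 rose, 6 fell and 2 did not pass, with a median log2 change of -0.24, where 27.7% of all genes were called higher and 25.7% lower. Slc1a1 (EAAT3), a glutamate and cysteine carrier, rose from 0.0487 to 1.65 FPKM (log2 3.68 ± 0.51, adjusted p = 7.32e-05), and Slc1a3 (GLAST), another glutamate carrier, fell from 42.1 to 3.59 FPKM (log2 -3.54 ± 0.32, adjusted p = 1.85e-06). Slc1a1 did not exceed 0.146 FPKM in siControl or 0.390 FPKM in siNCOA4. It therefore passed the filters on level only through the libraries with DFO, and its log2 change depends on the 0.1 added to each value. Slc7a11, which like Slc7a5 pairs with Slc3a2, rose with DFO from 1.36 to 17.4 FPKM (log2 3.59 ± 0.13, adjusted p = 1.99e-09) and with siNCOA4 to 3.48 FPKM (log2 1.29 ± 0.13, adjusted p = 8.7e-05), the latter the only call among these 11 in that comparison. Of 13 tested lysosomal and mitochondrial carriers (of 15), 3 rose and 5 fell with DFO, with a median of -0.32, against the same shares of all genes. The largest changes among them by the rule used were in the mitochondrial aspartate-glutamate carriers Slc25a12 (log2 -1.36 ± 0.11, adjusted p = 1.11e-06) and Slc25a13 (log2 -1.12 ± 0.10, adjusted p = 2.73e-06) and in the basic amino acid carrier Slc25a29 (log2 -1.24 ± 0.47, adjusted p = 0.0434). None of the 13 was called by limma with siNCOA4 at normal iron.

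**Figure D4:**
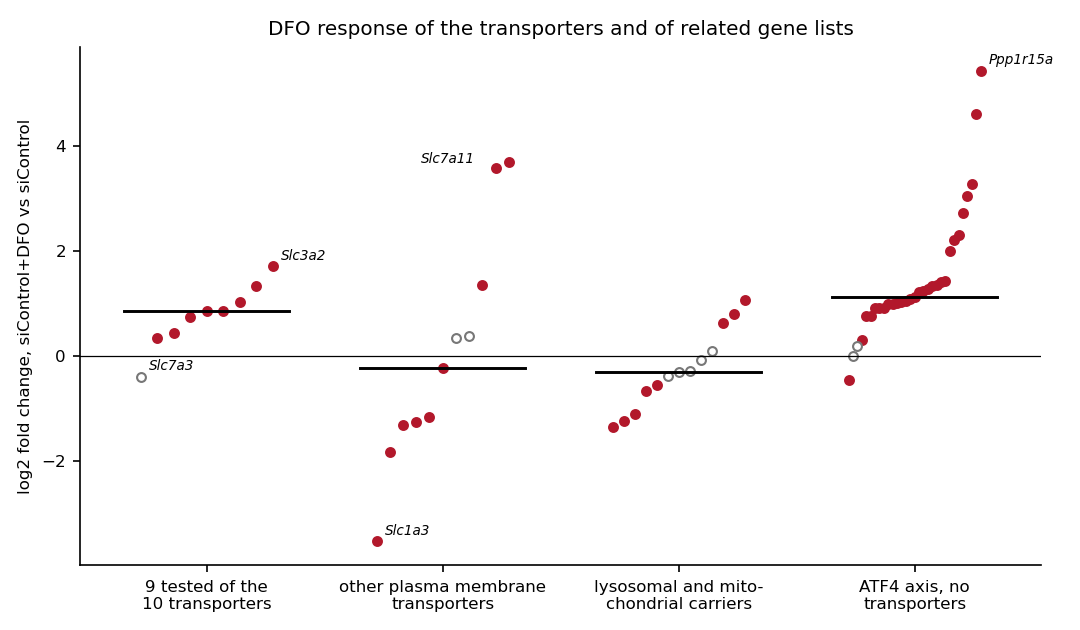
log2 fold change of FPKM + 0.1 in siControl+DFO versus siControl (vertical axis) for the tested genes of 4 lists (horizontal axis), each point a gene, sorted within its list. Filled red points have an adjusted p below 0.05, open points do not, and black lines are list medians, which were 0.85 for the 9 tested transporters, -0.24, -0.32 and 1.12 from left to right.

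A list of 31 genes of the ATF4 axis, without transporters, was set beside them. Like the lists of other carriers, it was chosen with earlier results of these data known. With DFO, 28 of the 31 rose and 1 (Psat1) fell, with a median log2 change of 1.12, where 27.7% of all genes were called higher and 25.7% lower. Among those that averaged at least 1 FPKM over all libraries, the largest changes were in Ppp1r15a, which recruits the phosphatase that reverses the stress response (7.18 to 315.4 FPKM, log2 5.44 ± 0.23, adjusted p = 4.78e-09), Sesn2, an inhibitor of mTORC1 when leucine is scarce (log2 3.28 ± 0.15, adjusted p = 8.62e-09), and Ddit3, the transcription factor CHOP (log2 3.05 ± 0.11, adjusted p = 2.36e-09). Atf4 itself rose from 255.8 to 526.5 FPKM (log2 1.04 ± 0.10, adjusted p = 2.34e-06). Atf3, also among the 28, averaged 0 FPKM in siControl and siNCOA4, and 2.46 FPKM in siControl+DFO. It therefore passed the filter only through the libraries with DFO, and its log2 change depends on the 0.1 added to each value. With siNCOA4 at normal iron, 3 of the 31 rose, namely Nupr1 (log2 0.93 ± 0.14, adjusted p = 0.00116), Cth (0.59 ± 0.09, adjusted p = 0.00199) and Gpt2 (0.58 ± 0.08, adjusted p = 0.00101), and 2 fell, with a median of -0.047, where 4.52% of all genes were called higher and 7.21% lower. In siNCOA4+DFO versus siControl+DFO, 9 of the 31 fell and 1 rose (10.2% of all genes were called lower and 6.22% higher), with a median of -0.24, beside a median of -0.10 for the transporters.

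Profiles over all 12 libraries were finally compared with the mean profile of Slc7a5 and Slc3a2, each gene expressed as log2(FPKM + 0.1) minus its siControl mean. The 5 closest of 10828 genes with a mean of at least 1 FPKM were Aldh1l2, a mitochondrial folate enzyme, at a root mean square difference of 0.11 on the log2 scale, Akap1, an anchor protein of the outer mitochondrial membrane (0.12), Arhgef2, a microtubule-associated exchange factor (0.12), Eif2ak3, the endoplasmic reticulum stress kinase PERK (0.12), and Slc35e4 (0.13). Slc7a5 and Slc3a2 themselves were each at 0.31 from their mean, so that closeness to this mean is not closeness to either gene. Among the other tested transporters, Slc7a1 (0.26), Slc1a4 (0.29) and Slc1a5 (0.33) were nearer to that mean than Slc6a9 (0.46), Slc38a2 (0.58) and Slc38a1 (0.58), and Slc7a3 was the farthest (1.20). All of these libraries share the same controls, so likeness of this kind describes the 12 libraries only.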

How the data were processed

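RNA-seq was performed by the authors on 12 HT22 libraries prepared with a stranded total RNA kit. According to the submitters' processing notes, the tools were Trimmomatic 0.33, FastQC, HISAT2 2.1.0, featureCounts and edgeR with the mm10 build; the annotation is not given in the sources used here. The deposited values are FPKM per gene, normalized by the authors, 1 file for each library. Each file lists 24347 entries, and 4 that share a name were left out. Read counts are not in these files, so the depth of each library is unknown (the study's methods state only a minimum number of reads per sample) and the edgeR count test of the study was replaced by limma; the FPKM sums were 565558 to 737313 per library.

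limma 3.58.1 in R 4.3.3 was fitted to log2(FPKM + 0.1) of the 11924 genes with at least 0.5 FPKM in at least 3 libraries, as a means model of the 4 groups with a variance trend and 8 residual degrees of freedom. Tests were two-sided, with Benjamini-Hochberg adjustment over all genes within a comparison, and 2-fold with an adjusted p below 0.05 was used as the stricter limit. The script was tested on simulated data. Ratios were compared by exact permutation of libraries. The transporters and the lists were chosen with earlier results of these data known. All 10 transporters were named in each comparison. From each other list, up to 3 genes of largest change with DFO or siNCOA4 were named. They had an adjusted p below 0.05 and a mean of at least 1 FPKM. Atf3, Atf4, Psat1 and the genes overlapping Slc6a9 were named after their values were seen. Gene positions came from GENCODE M21 on GRCm38 and promoter sequences from RefSeq. Alternatives were other pseudocounts, filters, scalings, variance models and samples, and a block on the replicate number.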

Additional observations from a re-analysis of the deposited data

How the results depend on the processing

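Values in FPKM carry no read counts, so counting error could not be separated from the spread between replicates, and 3 libraries a group left Slc7a3 and Slc43a1 unresolved. Over the alternative settings, 1131 estimates of single transporters kept their direction and their side of the threshold, 16 lost their call, 5 gained one and 21 changed sign. Many of these settings could not alter the direction. Other filters, other variance models, the replicate block, the compared groups alone and the removal of a library outside the comparison leave the log2 change as it was. The number of transporters called with siNCOA4 at normal iron was 3, but 2 without the filter on low values, under quantile normalization or without the variance trend, 5 when the compared groups were fitted alone and between 2 and 6 when single libraries were left out, 6 being the value without siNCOA4+DFO replicate 3. Past 2-fold in the same comparison there were 0, and between 0 and 1 with single libraries left out, the 1 arising without siNCOA4 replicate 1. The cause of these changes in number was not tested. Differences that changed sign were all far from the threshold. In siNCOA4+DFO versus siControl+DFO, quantile normalization gave 0.11 for Slc7a1 and 0.0024 for Slc1a4, and leaving out single libraries gave -0.15 to 0.068 for Slc7a1, -0.083 to 0.092 for Slc1a5 and -0.035 to 0.15 for Slc38a1. For the interaction, Slc7a3 was -0.019 with a pseudocount of 1 and between -0.28 and 0.51 with libraries left out, and Slc3a2 was 0.094 with quantile normalization and between -0.10 and 0.18 with libraries left out. Quantile normalization moved the median of all genes by at most 0.069 on the log2 scale. Slc7a3 had no value with a filter at 2 FPKM.

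No sign of pairing by replicate number was found: over 18 pairs of same-numbered libraries the correlation of deviations from group means ran from -0.13 to 0.12, above 0.1 in 2. Pairs of different number ran from -0.17 to 0.16. With 3 libraries a group, this cannot exclude that same-numbered cultures were handled together. With the replicate block the counts of called transporters stayed at 3 with siNCOA4, 8 with DFO, 1 for siNCOA4+DFO versus siControl+DFO, 8 for siNCOA4+DFO versus siNCOA4, 8 against siControl and 0 for the interaction, and no call changed.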
